A study of Gallus gallus with 8 samples.

Results

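Elastic fiber and microfibril genes were followed in fusing and free tail discs of the chicken. The group holds 10 genes, chosen by symbol from the 24154 genes of the deposited count table: *ELN*, *FBN1*, *FBN2*, *MFAP2*, *MFAP5*, *FBLN1*, *FBLN5*, *EMILIN1*, *LTBP1* and *LTBP2*. All 10 were found and all 10 passed the filter on low counts. The RNAseq compared intervertebral discs (IVDs) that degrade as the tail vertebrae fuse into the pygostyle with discs of the free caudal vertebrae, which stay unfused. Each tissue had 4 libraries of polyA-selected mRNA from untreated birds of 10 wk. The sample labels give white leghorn as the breed, whereas the methods name 8 Tetra birds as the source of the 8 libraries. Neither says whether a bird gave both kinds of disc, so the p-values measure the spread between these libraries.

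An elastic fiber has a core of cross-linked elastin inside a mantle of microfibrils. Fibrillins form the microfibrils, and microfibril-associated glycoproteins, fibulins and emilins bind to them and help to place tropoelastin, which lysyl oxidases then cross-link. Latent TGF-beta binding proteins also attach to fibrillin and hold latent TGF-beta in the matrix. In mammalian discs, elastic fibers lie between and across the lamellae of the annulus fibrosus, the collagen-rich outer ring, and give it recoil.

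Of the 10 genes, edgeR called 9 lower in fusing pygostyle IVDs and none higher, where a call needs more than 2-fold and an adjusted p under 0.05. Over all 13639 tested genes, 9.64% were called lower (1315 genes) and 13.2% higher (1797), against 624 and 4179 when libraries were scaled by their totals alone. At an unadjusted edgeR p under 0.05, all 10 members were lower and none higher. The share of all tested genes under that limit was not counted. DESeq2 and limma-voom called 9 members lower and none higher as well. Over all tested genes, DESeq2 called 1336 lower and 1886 higher, and limma-voom 1292 and 1835. The same 9 members had all 4 fusing libraries below all 4 free libraries, a pattern found in 20.2% of tested genes. No member showed the reverse, which 19.6% of tested genes did. The members had a median log2 fold change (fusing over free) of -2.62, against 0.01 for all tested genes and -2.62 for 12 fibrous connective tissue markers. The 12 fibrous connective tissue markers also summed to less in every fusing library (33494 to 48759 CPM) than in any free library (137134 to 375281 CPM). Most of these sums came from *COL1A1* and *COL1A2*, with means of 103812 and 96559 CPM in free and 16378.5 and 18872 CPM in fusing IVDs. The part of the 12 markers in the members' decreases was not tested. By histology, the paper describes a fibroconnective tissue specific to pygostyle discs, which expands during fusion. The summed RNA of these markers does not measure the amount of that tissue. These libraries are bulk tissue, so that fewer cells of a type and less RNA per cell cannot be told apart.

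**Figure D1:**
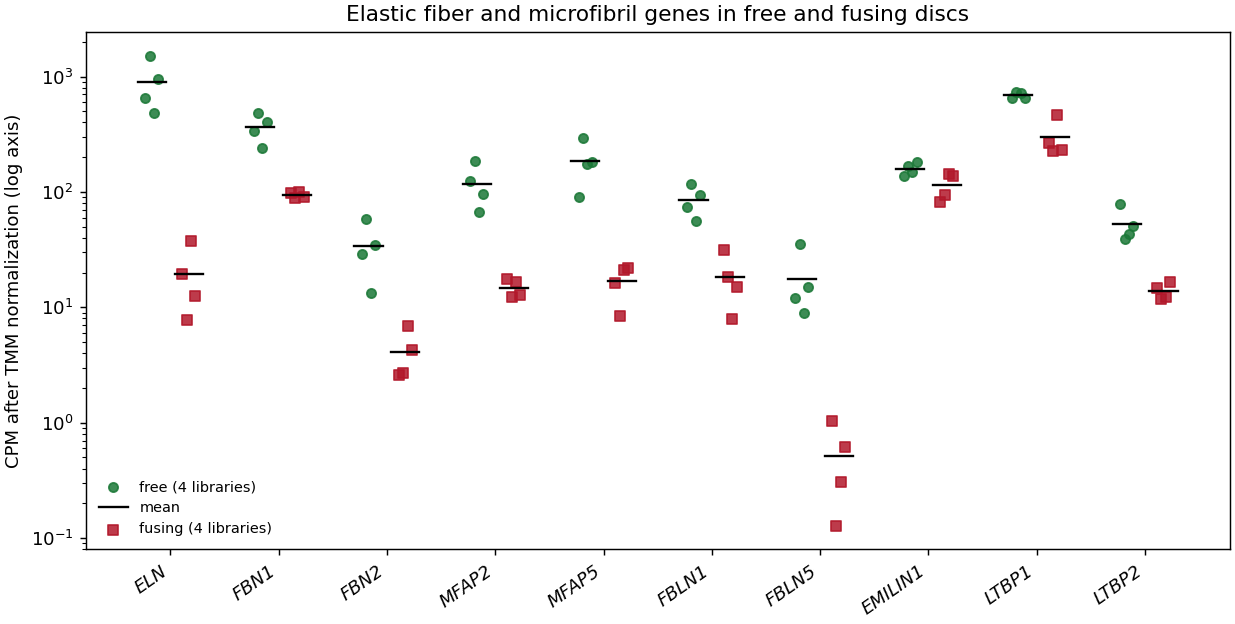
Expression of the 10 genes in each library, in CPM after TMM normalization on a log axis, with 4 free (circles) and 4 fusing (squares) libraries and their mean (line). *ELN* shows the widest gap between the tissues, while the libraries of *EMILIN1* overlap.

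The library totals ran from 12356953 to 18417470 counts in free and from 5682402 to 18434459 in fusing IVDs, with fusing replicate 2 the shallowest. Levels are given in counts per 1000000 (CPM) after TMM normalization, which corrects for a few genes taking a large share of the counts, and the factors were 0.70 to 0.86 in free and 1.14 to 1.38 in fusing libraries. With scaling by the totals alone, the median of all genes shifted up by 0.69 on the log2 scale. Against that median the members then lay at -0.50 to -5.55. No exon of a member overlaps an exon of another annotated gene.

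*ELN* encodes tropoelastin, the precursor of the elastic core, and lies on chromosome 19, 943081 to 962579 of GRCg6a. Its level was 655, 1513, 481 and 960.3 CPM in free replicates 1 to 4. In fusing replicates 1 to 4 it was 19.4, 7.77, 37.5 and 12.5 CPM. The lowest free library was 12.8 times the highest fusing library. *ELN* fell by 5.54 ± 0.60 (SE) on the log2 scale, with an adjusted p of 0.000212 by edgeR, the largest decrease among the members, which is a 46.6-fold lower level with a 95% interval on the log2 scale from -6.89 to -4.20. Without any 1 library it stayed between -6.09 and -5.18. *ELN* made up 24.7% to 41.8% of the counts of the 10 genes in free libraries and 1.65% to 4.60% in fusing libraries.

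Fibrillin 1, the main fibrillin of postnatal microfibrils in mammals, comes from *FBN1* (chromosome 10, 10622651 to 10768893). Its level was 336, 484, 239 and 405 CPM in free replicates 1 to 4 and 97.1, 87.9, 101 and 90.8 CPM in fusing replicates 1 to 4. The fusing libraries lay close together, whereas the free libraries spread over 2.03 times from the lowest to the highest. *FBN1* fell by 1.96 ± 0.21 (SE) on the log2 scale, with an adjusted p of 0.000219 by edgeR.

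Fibrillin 2 is best known from fetal microfibrils in mammals, and *FBN2* lies on chromosome Z, 56967287 to 57129904. Free replicates 1 to 4 had 28.9, 57.9, 13.3 and 34.7 CPM and fusing replicates 1 to 4 had 2.59, 2.67, 6.93 and 4.25 CPM. The tissues did not overlap, but the highest fusing library came within 1.93 times of the lowest free library. *FBN2* fell by 3.02 ± 0.48 (SE) on the log2 scale, with an adjusted p of 0.00118 by edgeR.

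The microfibril-associated glycoproteins MAGP-1 and MAGP-2 are small proteins on the surface of microfibrils, encoded by *MFAP2* (chromosome 21, 4415383 to 4418927) and *MFAP5* (chromosome 1, 75647635 to 75669272). *MFAP2* had 124, 185, 67.2 and 95.8 CPM in free replicates 1 to 4. Its fusing libraries held 17.5, 12.2, 16.4 and 12.7 CPM, all well below the lowest free library. This is 3.83 times between the nearest libraries, and *MFAP2* fell by 3.0 ± 0.31 (SE) on the log2 scale, with an adjusted p of 0.000168 by edgeR.

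For *MFAP5*, the free replicates 1 to 4 had 89.6, 292, 173 and 181 CPM and the fusing replicates 16.4, 8.40, 20.9 and 21.8 CPM. The free library with the least *MFAP5* was replicate 1, not replicate 3 as for *MFAP2*. *MFAP5* fell by 3.44 ± 0.41 (SE) on the log2 scale, with an adjusted p of 0.000318 by edgeR, the third largest decrease of the 10.

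Fibulins bind fibrillin and tropoelastin, and mice without fibulin 5 fail to build normal elastic fibers. *FBLN5* (chromosome 5, 44669773 to 44711483) had 12.02, 35.1, 8.93 and 15.0 CPM in free replicates 1 to 4 and 1.03, 0.127, 0.304 and 0.614 CPM in fusing replicates 1 to 4. These fusing values rest on 19, 1, 4 and 14 counts, so that their order is not resolved at this depth, while the free values rest on 101 to 388 counts. *FBLN5* fell by 4.92 ± 0.60 (SE) on the log2 scale, with an adjusted p of 0.000355 by edgeR, the second largest decrease of the group.

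*FBLN1* encodes fibulin 1, found in the elastic core and in basement membranes, on chromosome 1, 70452502 to 70534920, where its span also holds LOC107053998. Its level was 74.1, 118, 56.1 and 94.7 CPM in free replicates 1 to 4 and 31.1, 18.5, 7.92 and 15.1 CPM in fusing replicates 1 to 4. The gap between the tissues was the second narrowest among the 9 genes that fell, with the lowest free library 1.81 times the highest fusing library. *FBLN1* fell by 2.24 ± 0.39 (SE) on the log2 scale, with an adjusted p of 0.00197 by edgeR.

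*EMILIN1* was the exception. Its product, a glycoprotein at the interface of elastin and microfibrils, is encoded on chromosome 3, 104461366 to 104466571. Free replicates 1 to 4 had 138, 167, 149.7 and 182 CPM and fusing replicates 1 to 4 had 82.3, 93.5, 144 and 137 CPM. Fusing replicate 3 lay above free replicate 1, so the tissues overlapped. *EMILIN1* was not called, with a log2 fold change of -0.48 ± 0.20 (SE, adjusted p = 0.0842 by edgeR) and a 95% interval from -0.93 to -0.03. With library totals the value was 0.20, so that its sign depends on the scaling. Relative to the median of all genes under that scaling, it was -0.50.

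*LTBP1* (chromosome 3, 31247804 to 31430288, its span also holding LOC107052898) and *LTBP2* (chromosome 5, 38139289 to 38203072) encode latent TGF-beta binding proteins. The first binds latent TGF-beta, whereas the second does not and is known from microfibrils in mammals. *LTBP1* was even among the free replicates 1 to 4, at 654, 731, 715 and 652 CPM. In fusing replicates 1 to 4 it had 263, 228, 469 and 229.9 CPM, and replicate 3 stood apart from the others. *LTBP1* fell by 1.21 ± 0.24 (SE) on the log2 scale, the smallest decrease among the called members, with an adjusted p of 0.00408 by edgeR. With library totals the log2 fold change of *LTBP1* was -0.54 (edgeR adjusted p = 0.0465), no longer a call, which is -1.24 relative to the median of all genes under that scaling.

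*LTBP2* had 79.0, 39.2, 43.1 and 51.1 CPM in free replicates 1 to 4 and 14.6, 11.7, 12.3 and 16.6 CPM in fusing replicates 1 to 4. The highest free library was replicate 1, whereas free replicate 2 was highest for 8 of the 10 members. *LTBP2* fell by 1.94 ± 0.23 (SE) on the log2 scale, with an adjusted p of 0.000347 by edgeR.

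To compare levels between genes, counts were divided by exonic length (RPKM, with the same TMM factors). In free IVDs *ELN* had the highest level, with 285 RPKM, followed by *MFAP2* with 168 and *LTBP1* with 107. The libraries of these 3 overlapped from each gene to the next. *MFAP5* (59.2 RPKM) and *EMILIN1* (58.4) followed, also overlapping, and then *FBN1* (37.7). *FBLN1* (18.8 RPKM), *FBLN5* (7.23), *LTBP2* (5.37) and *FBN2* (3.11) closed the order, each overlapping the one before it.

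In fusing pygostyle IVDs, *LTBP1* had the highest level per length with 46.3 RPKM, and *EMILIN1*, with 41.8 RPKM, overlapped it. *MFAP2* (21.0 RPKM) and *FBN1* (9.68) came next, each separate from the gene above. *ELN*, first in free IVDs, held the fifth place with 6.10 RPKM and overlapped *FBN1* and *MFAP5* (5.43). *FBLN1* (3.97 RPKM) overlapped *MFAP5*, and *LTBP2* (1.40) lay apart from its neighbours. *FBN2* (0.380 RPKM) and *FBLN5* (0.211) were lowest and overlapped.

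**Figure D2:**
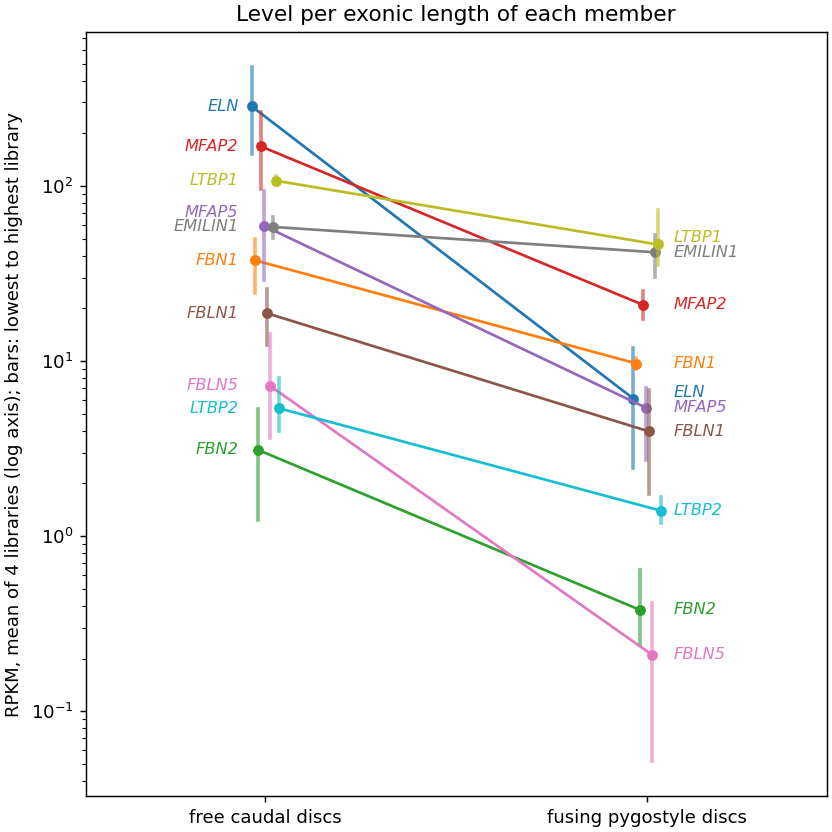
Level per exonic length (RPKM, log axis) of each gene in free and fusing discs, with the mean of 4 libraries (points) and the lowest to the highest library (bars). *ELN* drops from the first to the fifth place, and *LTBP1* and *EMILIN1* lead in fusing discs.

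Ratios between 2 genes of the same library do not depend on how libraries are scaled. For 8 pairs, the log2 ratio of counts per kilobase was compared between the tissues with an exact two-sided permutation test, whose smallest possible p with 4 against 4 libraries is 0.0286. Of the 8, 4 pairs reached it with no overlap between the tissues, which after Benjamini-Hochberg adjustment over the 8 pairs is 0.0571, so no pair passed 0.05. The ratio of *ELN* to *FBN1* was 5.98, 9.59, 6.20 and 7.28 in free replicates 1 to 4. In fusing replicates 1 to 4 it was 0.613, 0.272, 1.15 and 0.423. Elastin transcripts thus outnumbered those of fibrillin 1 per length in every free library and in 1 fusing library, and the ratio was 13.4-fold lower in fusing IVDs (geometric means, higher in all 4 free libraries).

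The ratio of *EMILIN1* to *FBN1* lay the other way, with 1.23 to 2.23 in free and 3.02 to 5.37 in fusing libraries, a 2.64-fold higher geometric mean. *FBLN5* to *FBLN1* had a ratio of 0.295 to 0.553 in free and 0.0128 to 0.0757 in fusing libraries, 7.65-fold lower, and a log2 difference of -2.33 in place of -2.93 without fusing replicate 2. *LOX* to *ELN*, the enzyme against its substrate, had 0.722 to 1.44 in free and 6.87 to 27.0 in fusing libraries, 11.6-fold higher. Each of these had an exact permutation p of 0.0286.

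The other pairs overlapped between the tissues. *FBN2* to *FBN1* had a geometric mean ratio of 0.0752 in free and 0.0361 in fusing IVDs (exact permutation p = 0.0571, adjusted 0.0914). *MFAP5* to *MFAP2* had 0.346 and 0.246 (exact p = 0.343, adjusted 0.392). *LTBP1* to *LTBP2* had 20.7 and 31.9 (exact p = 0.171, adjusted 0.229). For *FBLN5* to *ELN*, the pair with the largest decreases, the geometric means were 0.0241 and 0.0312 (exact p = 0.600, adjusted 0.600). These tests do not show that the ratios were alike.

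**Figure D3:**
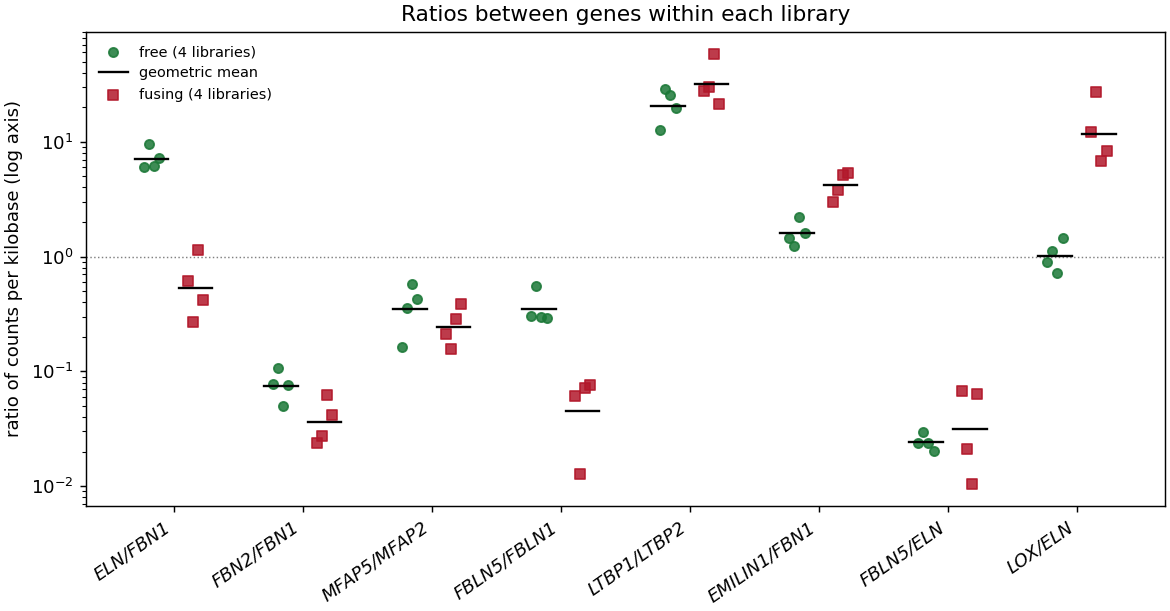
Ratio of counts per kilobase between 2 genes within each library (log axis), for 8 pairs, in free (circles) and fusing (squares) libraries with the geometric mean (line) and a dotted line at a ratio of 1. The tissues are separate for *ELN/FBN1*, *FBLN5/FBLN1*, *EMILIN1/FBN1* and *LOX/ELN*.

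Within a tissue the members often ranked the libraries alike. Among the free libraries, replicate 2 was highest for 8 members and replicate 3 lowest for 6. Among the fusing libraries, replicate 3 was highest for 5 members and replicate 2, the shallowest, lowest for 7. These ranks are of CPM after TMM normalization. Within each tissue the TMM factor was smallest in free replicate 2 (0.699) and fusing replicate 3 (1.14). It was largest in free replicate 3 (0.857) and fusing replicate 2 (1.38). As a share of total counts, without TMM, the 10 genes together were also highest in free replicate 2 (0.253%) and fusing replicate 3 (0.0930%). By that share they were lowest in free replicate 3 (0.167%) and fusing replicate 2 (0.0650%). The part of the scaling in the ranks of single members was not tested. The coefficient of variation over free libraries ran from 5.96% for *LTBP1* and 12.1% for *EMILIN1* to 66.5% for *FBLN5*, and for *ELN* it was 50.2%. Over fusing libraries it ran from 6.17% for *FBN1* to 76.0% for *FBLN5*.

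Pearson correlations of log2 CPM with *ELN* over the 8 libraries, which share the difference between the tissues, were 0.98 for *FBN1* and *MFAP2*, and 0.95 to 0.97 for *FBN2*, *MFAP5*, *FBLN5* and *LTBP1*. They were 0.90 for *LTBP2*, 0.86 for *FBLN1* and 0.76 for *EMILIN1*. Of 10519 other genes whose mean reached 5 CPM, 7.37% had a correlation of at least 0.95 with *ELN*. The 5 closest, at 0.996 to 0.998, were *NUDT6*, *EXTL3*, *SCFD1*, *ACBD3* and *CHST1*. Their log2 fold changes were -2.91, -0.76, -0.52, -1.20 and -3.31, all smaller than that of *ELN*.

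Other genes of elastic fiber assembly were read from 7 lists with 65 names, of which 50 were found in the table and 46 tested. edgeR called 18 of the 46 lower (39.1%) and 5 higher (10.9%), where 9.64% and 13.2% of all tested genes were called. With library totals 14 were lower (30.4%) and 9 higher (19.6%), where 624 and 4179 of all 13639 tested genes were called lower and higher. The 46 genes had a median log2 fold change of -0.38 in the main fit. The lists were chosen with earlier results of these data known, which limits what these shares can show. Of the 5 lysyl oxidases, which start the cross-links of elastin and collagen, 3 were called lower and 1 higher. *LOX* had 233, 678, 139 and 554 CPM in free replicates 1 to 4 and 93.9, 83.8, 103 and 41.5 CPM in fusing replicates 1 to 4. All fusing libraries lay below the free ones, and *LOX* fell by 2.32 ± 0.51 (SE) on the log2 scale, with an adjusted p of 0.00603 by edgeR. *LOXL2* fell by 2.34 and *LOXL3* fell by 3.10 on the log2 scale. *LOXL3* had the highest mean level per length of the family in free IVDs, 407 RPKM against 317 RPKM for *LOX*.

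*LOXL1*, which is needed for elastic fiber renewal in mice, had 185 to 207 CPM in free and 81.5 to 122 CPM in fusing libraries. Its change of -0.99 ± 0.14 (SE, adjusted p = 0.000804 by edgeR) on the log2 scale missed the limit of 2-fold narrowly. It was called lower with the replicate number as a block (-1.003, edgeR adjusted p = 0.00454), with limma-voom (-1.01), and without free replicate 3 (-1.03), fusing replicate 1 (-1.03) or fusing replicate 3 (-1.11). It was not called in any other setting, at -0.94 with the block by sample code and -0.30 with library totals, where the edgeR adjusted p was 0.0839. The sample codes match the replicate numbers for replicates 1 and 4 only. *LOXL4* went the opposite way to the rest of its family. It had 11.2, 3.62, 56.5 and 20.9 CPM in free replicates 1 to 4 and 239, 197, 522 and 418 CPM in fusing replicates 1 to 4, with no overlap. *LOXL4* rose by 3.90 ± 0.76 (SE) on the log2 scale, with an adjusted p of 0.00336 by edgeR, and by 4.85 without free replicate 3, the free library with the most *LOXL4*.

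**Figure D4:**
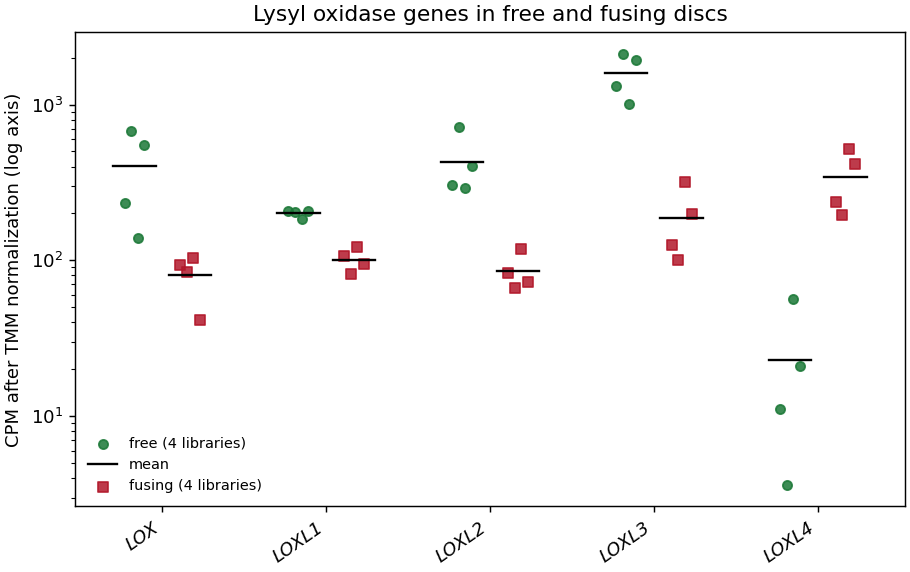
Level of the 5 lysyl oxidase genes in each library (CPM after TMM normalization, log axis), in free (circles) and fusing (squares) libraries with their mean (line). *LOX*, *LOXL2* and *LOXL3* are lower and *LOXL4* is higher in all 4 fusing libraries.

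Of 5 tested relatives of the fibulins and fibrillins, 4 were called lower and none higher, and none was higher at an unadjusted p under 0.05 or by DESeq2 or limma-voom. *FBLN7* had 439.6 ± 160.2 CPM (SD, n = 4) in free and 51.1 ± 23.5 CPM (SD, n = 4) in fusing IVDs, and fell by 3.10 ± 0.39 (SE) on the log2 scale, with an adjusted p of 0.000412 by edgeR. *FBLN2* fell by 1.80 and *HMCN1*, a hemicentin, by 1.11 on the log2 scale. *HMCN1* was not called with library totals (-0.41). *EFEMP1* (fibulin 3) fell by 1.53 ± 0.47 (SE) on the log2 scale, with an adjusted p of 0.0286 by edgeR, but was not called with the replicate block (-1.20, edgeR adjusted p = 0.0543), with limma-voom (-1.23), with library totals (-0.76), without free replicate 2 (-0.86) or 4 (-1.54), or without any 1 of the fusing libraries (-1.51 to -1.59). With the block by sample code *EFEMP1* stayed called. Free replicate 2 had 299 CPM of *EFEMP1*, against 55.4 to 141 in the other free libraries. *FBN3* was scarce in both tissues, with 2.32 ± 2.41 CPM (SD, n = 4) in free and 3.87 ± 2.25 CPM (SD, n = 4) in fusing IVDs, and was not called, at 0.76 ± 0.77 (SE, adjusted p = 0.472 by edgeR) on the log2 scale.

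Among 6 tested microfibril-associated and emilin genes, 3 were called lower and none higher, and none was higher at an unadjusted p under 0.05 or by DESeq2 or limma-voom. *EMILIN2* fell by 3.12 and *EMILIN3* by 3.26 on the log2 scale, whereas *EMILIN1* was not called. A test of the difference between the emilins was not run. *MFAP3L*, which shares its name but is a membrane protein, had 19.7 ± 6.12 CPM (SD, n = 4) in free and 0.583 ± 0.402 CPM (SD, n = 4) in fusing IVDs, and fell by 4.96 ± 0.46 (SE) on the log2 scale, with an adjusted p of 0.000113 by edgeR. *MFAP3* was not called, at 0.12 ± 0.13 (SE, adjusted p = 0.495 by edgeR) on the log2 scale. For *MMRN1* (multimerin 1, of platelets and endothelium in mammals) a single library decided the sign. Free replicate 2 had 224 counts and the other free libraries 1 or 2, the fusing libraries had 10 to 78, and the log2 fold change was -1.31 with all libraries but 4.11 (edgeR adjusted p = 0.00466) without free replicate 2. With the replicate block it was 1.45 and with limma-voom 1.85, neither called.

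The cytokines that *LTBP1* keeps latent were not called. On the log2 scale *TGFB1* had 0.06 ± 0.14 (SE, adjusted p = 0.785 by edgeR). *TGFB2* had 0.66 ± 0.20 (SE, adjusted p = 0.0287 by edgeR), and *TGFB3* had -0.76 ± 0.19 (SE, adjusted p = 0.0105 by edgeR). *TGFB2* lay above and *TGFB3* below in all 4 fusing libraries, by less than 2-fold, and *TGFB2* was called higher with library totals (1.34). *NRROS*, which anchors latent TGF-beta on myeloid cells in mammals, rose by 1.96 ± 0.42 (SE) on the log2 scale, with an adjusted p of 0.00558 by edgeR, though it was not called when the numbers inside the sample codes served as the block (1.65, edgeR adjusted p = 0.0584). Of the 5 tested genes of this list edgeR called none lower, with 1 lower at an unadjusted p under 0.05 and none by DESeq2 or limma-voom.

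Of 8 tested ADAMTS-like and ADAMTS genes linked to microfibrils, 3 were called lower and none higher, and none was higher at an unadjusted p under 0.05 or by DESeq2 or limma-voom. *ADAMTS19* fell by 3.66, *ADAMTSL3* by 1.96 and *ADAMTSL2*, which binds *LTBP1* and fibrillin 1, by 1.25 on the log2 scale. *ADAMTSL2* was not called with library totals (-0.53). *THSD4* (ADAMTSL6), which promotes fibrillin 1 assembly in mice, had 34.5 ± 8.39 CPM (SD, n = 4) in free and 33.6 ± 9.69 CPM (SD, n = 4) in fusing IVDs and was not called.

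Of 13 symbols listed for enzymes able to degrade elastin, 9 were found and 6 were tested. *MMP12* and *ELANE* were among those not found. Of the 6 tested, 2 were called higher and none lower. At an unadjusted edgeR p under 0.05, 4 were higher and none lower, and DESeq2 and limma-voom called none lower. With library totals 4 were called higher, *MMP9* and *CTSV* (cathepsin V) in addition. That scaling called 4179 of all 13639 tested genes higher and put their median log2 fold change at 0.70. *CTSV* had 35.7 ± 3.43 CPM (SD, n = 4) in free and 47.5 ± 10.4 CPM (SD, n = 4) in fusing IVDs, overlapping, and a log2 fold change of 0.41, or 1.12 with library totals. *CTSK* (cathepsin K, of osteoclasts) had 278, 280.2, 507 and 293 CPM in free replicates 1 to 4 and 1167, 1093, 1214 and 1493 CPM in fusing replicates 1 to 4. All fusing libraries lay above the free ones, and *CTSK* rose by 1.87 ± 0.24 (SE) on the log2 scale, with an adjusted p of 0.000445 by edgeR. *CTSS* (cathepsin S, of macrophages and other antigen-presenting cells) rose by 2.43 on the log2 scale. The leukocyte and osteoblast markers were also higher in fusing IVDs (9 of 9 and 8 of 10 called), and their part in these changes was not tested.

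*MMP9* (gelatinase B) had 4.27, 16.4, 529 and 291 CPM in free replicates 1 to 4 and 1208, 857, 1749.5 and 1584 CPM in fusing replicates 1 to 4. The free libraries fell into a low and a higher pair, and all lay below the fusing libraries. A difference of 2.68 ± 1.17 (SE, adjusted p = 0.0973 by edgeR) on the log2 scale was not called. It was called with the replicate block (4.31, edgeR adjusted p = 0.0379), with the block by sample code (5.997, edgeR adjusted p = 0.0319), with library totals (3.30) and without free replicate 3 (3.70, edgeR adjusted p = 0.0485). Free replicate 3 has no partner by sample code, so the block by code takes no difference from it either. *MMP2* had 1335 ± 472 CPM (SD, n = 4) in free and 1135 ± 382 CPM (SD, n = 4) in fusing IVDs, and was not called.

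Of 11 tested proteins that bind microfibrils or elastin, 5 were called lower and 1 higher. *VTN* (vitronectin) fell by 4.29, *DCN* (decorin) by 3.09 and *VCAN* (versican, which binds fibrillin 1) by 2.21 on the log2 scale. *FKBP10*, a chaperone of collagen and tropoelastin, fell by 1.79 and the integrin subunit gene *ITGB5* by 1.17, though *ITGB5* was not called with library totals (-0.50). *ITGB3*, an integrin subunit gene of osteoclasts and thrombocytes, rose by 3.20. *ITGB1*, which like *ITGB3* and *ITGB5* encodes a partner of the integrin alpha-V chain, was not called, at -0.21 ± 0.14 (SE, adjusted p = 0.254 by edgeR) on the log2 scale. *ITGAV* itself, at 0.54 ± 0.21 (SE, adjusted p = 0.0688 by edgeR) on the log2 scale, was not called, but was called higher with library totals (1.23).

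**Figure D5:**
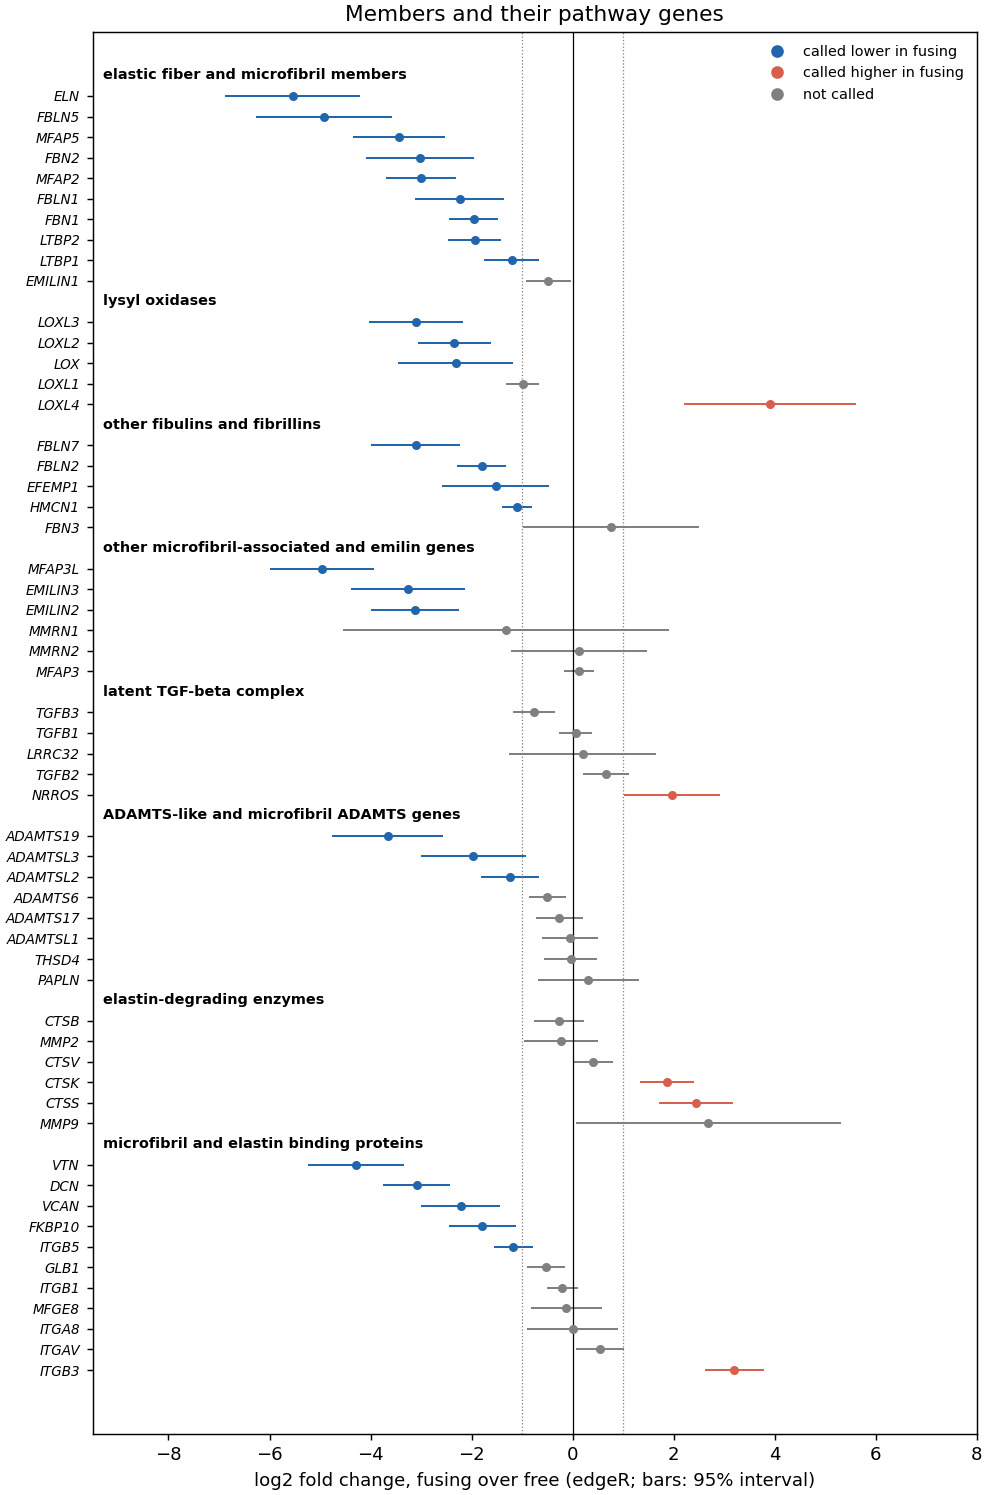
Log2 fold change of fusing over free discs for the 10 members and the 46 other tested genes of the 7 lists, with the 95% interval from edgeR (bars), dotted lines at a 2-fold change, and color for the call. The members lie on the lower side, and *LOXL4*, *CTSK*, *CTSS*, *NRROS* and *ITGB3* are the 5 genes called higher.

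Marker lists show what else differed between the tissues. Disc genes were abundant in every library, with summed levels of 11 chondrocyte markers of 141476 to 230936 CPM in free and 58280 to 166373 CPM in fusing libraries. Of these, 2 were called lower (*COL2A1* and *SOX9*) and 1 higher (*MATN1*), genes picked for naming after their values were seen. *COL2A1* had the largest mean of the 11, with 152383 CPM in free and 46029 CPM in fusing IVDs, and weighs most in the sums. Most of the 11 markers did not share its decrease, since their median lay at 0.38 on the log2 scale. Of the 12 fibrous connective tissue markers, 9 were called lower and *THBS4* higher. Their sum, mostly *COL1A1* and *COL1A2*, was highest in free replicate 2. Among free libraries it was lowest in replicate 3. These libraries were also highest and lowest for most members. Among fusing libraries the match was reversed. The sum was highest in replicate 2 (48759 CPM), which was lowest for 7 members. It was lowest in replicate 3 (33494 CPM), which was highest for 5 members. The link between this sum and the members was not tested. Of 10 osteoblast markers 8 were called higher (161 to 1561 CPM in free, 4509 to 6441 CPM in fusing), and of 9 tested leukocyte markers all 9 (168 to 339 and 1020 to 2213 CPM). Adipocyte markers gave 3 higher and 1 lower (*ADIPOQ*, -2.87 on the log2 scale) of 6 tested (169 to 369.6 CPM in free, 113 to 324 CPM in fusing). No tested or untested marker of these 5 lists was at 0 in all libraries of a tissue.

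Smooth muscle and endothelium of vessels also make elastic fibers. None of 9 tested smooth muscle markers was called by edgeR, 1 was lower at an unadjusted p under 0.05 and 1 lower by DESeq2, with sums of 108 to 352 CPM in free and 128 to 218 CPM in fusing libraries. None of 8 tested endothelium markers was called by edgeR or DESeq2, with 1 higher and 1 lower at an unadjusted p under 0.05, 1 higher by limma-voom, and sums of 156 to 501 and 230 to 278 CPM. The 7 skeletal muscle markers varied from 7.67 to 877 CPM in fusing and from 18.5 to 508 CPM in free libraries, and edgeR, DESeq2 and limma-voom called none, nor was any below an unadjusted p of 0.05. In the 10 smooth muscle genes, 9 endothelium and 7 skeletal muscle genes found, none was at 0 in all libraries of a tissue.

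Ratios to *COL1A1* and *COL3A1*, chosen after these values were seen and given without a test, set some members against these collagen genes within each library. The log2 fold changes of the 12 fibrous markers ran from -7.62 (*DPT*) to 1.34 (*THBS4*). They were -2.66 for *COL1A1* and -4.64 for *COL3A1*. The ratios thus depend on the marker chosen. The ratio of *ELN* to *COL1A1* per kilobase was nearly even in the 4 free libraries, from 0.0122 to 0.0132, and was 0.000565 to 0.00391 in fusing libraries, 8.55-fold lower. *ELN* to *COL3A1* had 0.0397 to 0.0824 in free and 0.0134 to 0.0718 in fusing libraries, which overlap. *FBN1* to *COL1A1* had 0.00134 to 0.00205 in free and 0.00208 to 0.00342 in fusing libraries, which do not overlap. *LTBP1* to *COL1A1* had 0.00306 to 0.00894 in free and 0.00817 to 0.0241 in fusing libraries, which overlap. *EMILIN1* to *COL1A1* had 0.00165 to 0.00440 in free and 0.00788 to 0.0174 in fusing libraries, which do not.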

How the data were processed

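RNAseq libraries of polyA-selected mRNA (NEBNext, unstranded, NextSeq) were aligned by the authors with STAR to GRCg6a, and the deposited table holds whole-number counts per gene from featureCounts, unnormalized, with reads assigned to more than 1 gene left out. A second deposited table holds 5 columns of the authors' own DESeq2 comparison and was not used. Reads of overlapping or antisense genes cannot be told apart without strand. Counts of 4 fusing and 4 free libraries, grouped by their labels, were filtered (filterByExpr, minimum count 10, minimum total 15), scaled with TMM and tested with the quasi-likelihood test of edgeR 4.0.16 (R 4.3.3), with Benjamini-Hochberg adjustment over 13639 genes. CPM and RPKM used the same factors and the deposited exonic lengths. Exact permutation tests were run on within-library ratios. The edgeR, DESeq2 and limma-voom fits without a block were tested on simulated counts, and the other steps were not.

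Chromosome names were taken from a match of symbols to RefSeq GRCg7b genes, and coordinates from the deposited table. Alternatives were DESeq2 1.42.0, limma-voom (limma 3.58.1), other scalings and filters, blocks and leaving out each library. Same-numbered libraries of the 2 tissues had correlations of 0.24, 0.16, 0.11 and 0.25 in their deviations from the group means. These values do not show that such libraries share a bird. The main fit and the permutation tests used no pairing. The replicate number, taken from the sample titles, served as a block in alternatives only. The codes in the same titles match these numbers for replicates 1 and 4 only. By code, 3 pairs can be formed, with correlations of 0.25, -0.06 and 0.24, and a block on the codes was run as an alternative. Free replicate 3 and fusing replicate 2 have no partner by code. Under that block the difference between the tissues thus rests on the 3 pairs. The members, lists and tests were chosen with earlier results of these data known. The genes named are the 10 members, tested genes of the 7 pathway lists, markers called against the direction of their list, and the 5 genes of a mean of at least 5 CPM whose log2 CPM correlated best with that of *ELN*. *COL1A1*, *COL1A2*, *COL3A1*, *DPT*, *COL2A1*, *SOX9* and *MATN1* lie outside this rule and were chosen after their values were seen. *MMP12* and *ELANE* are named only as not found. No 2 replicates of a tissue agreed within sampling noise (lowest chi-square per degree of freedom 35.0). The library totals set the counting precision, which matters for the low counts of *FBLN5* in fusing libraries.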

Additional observations from a re-analysis of the deposited data

Results flagged for a closer look

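In 52 groups of 4 libraries, the highest or lowest library was compared with its nearest neighbour by Dixon's test, which chance passes in about 1 of 20 groups, and 4 groups had such a library. *LTBP1* had 469 CPM in fusing replicate 3, against 263 CPM in the next library. *LOXL1* had 185 CPM in free replicate 3, below the next value of 205 CPM. *MMRN1* had 20.3 CPM in free replicate 2, against 0.129 CPM in the next free library. The ratio of *FBLN5* to *FBLN1* was 0.553 in free replicate 2, against 0.301 in the next free library.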

How the results depend on the processing

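Of 326 values recomputed under another setting for the members, the ratios and the counts of all genes, 323 kept their call, stayed within the spread between libraries (ratios) or stayed near the first count (counts of genes). For each ratio, the raw-count and replicate-block values equal the first value by construction. They are counted among the 323. With library totals, 4179 genes were called higher and 624 lower, and *LTBP1* had a log2 fold change of -0.54 (not called) and *EMILIN1* of 0.20, since that scaling shifts all genes. Members called lower were 9 without any 1 library and 8 with library totals. Without any 1 library, the genes called higher ranged from 1589 to 1986 and those called lower from 1225 to 1483, *ELN* ranged from -6.09 to -5.18, *FBLN5* from -5.44 to -4.38, *LTBP1* from -1.53 to -1.10 and *EMILIN1* from -0.63 to -0.37. *MMRN1* ranged from -2.004 to 4.11. With the replicate block, 1856 genes were called higher and 1320 lower, and with the block by sample code 1606 and 1232, and neither changed a member's call. The permutation test of a ratio cannot pass 0.05 as 4 pairs (smallest p 0.125), and it was not run with 7 libraries, so these settings give values only. Depth limits the fusing values of *FBLN5*.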
